A study of Mus musculus with 15 samples.

Results

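The CCT chaperonin, also called TRiC, is the folding chamber of the cytosol, and its 8 subunits are encoded in the mouse by Tcp1, Cct2, Cct3, Cct4, Cct5, Cct6a, Cct7 and Cct8. These 8 genes were taken by symbol from 53380 features measured in each library, which are mouse genes and a separate feature for the human MYC transgene, and each symbol matched 1 gene. RNA-seq of polyA RNA was measured in mouse T-ALL (T-cell acute lymphoblastic leukemia) cells cultured with doxycycline for 0 (mock-treated, MYC on), 2, 4, 8 or 24 h, in 15 libraries, 3 for each time. The cells carry EμSRα-tTA, which expresses the tetracycline transactivator in lymphoid cells, and tet-O-MYC, a human MYC transgene that the transactivator drives, so that doxycycline turns MYC off. All 15 libraries share both transgenes. Doxycycline was present at every time point but 0 h, so an effect of the drug itself cannot be told apart from the loss of MYC. The labels do not say whether replicates came from separate cultures, so p-values measure the spread between these libraries, which may be technical.

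CCT is a hollow barrel of stacked rings, each built from 1 copy of every subunit in a fixed order. ATP binding and hydrolysis close a built-in lid over an unfolded protein, and actin, the tubulins and many WD40-repeat proteins depend on the chamber to fold. Prefoldin hands newly made chains to CCT, and phosducin-like proteins bind the chaperonin and adjust its work. The subunits are not equal in their use of ATP: in the yeast complex Cct3, Cct6 and Cct8 hydrolyse little of it. The question for the data is whether the transcripts of subunits that assemble in equal copies moved together as MYC was turned off.

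The genes lie on 8 chromosomes. In GENCODE M21 on the build GRCm38, Tcp1 is at chr17:12915701-12925067 on the plus strand, Cct3 at chr3:88297116-88321767 plus, Cct4 at chr11:22990519-23003780 plus, Cct6a at chr5:129786998-129846371 plus and Cct7 at chr6:85451514-85468475 plus. On the minus strand lie Cct2 at chr10:117051001-117063814, Cct5 at chr15:31590800-31601804 and Cct8 at chr16:87483326-87495873. M21 types Cct6a as a processed transcript with a sequence error in the assembly, whereas RefSeq holds it as protein coding. Exons of 4 members overlap a gene on the other strand: 188 bases of Tcp1 with Mrpl18 and 808 with Acat3, 452 bases of Cct6a with Psph, 457 of Cct7 with Pradc1 and 192 of Cct8 with Usp16. Whether reads were counted by strand is not given, so reads in those bases cannot be assigned. Of 16 pseudogenes of the subunits named in RefSeq, 10 were found in the files, and the highest was assigned 16 counts over all 15 libraries, against at least 139901 counts for a member. Reads that map to both a member and a copy are not measured by these counts.

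Promoter sequences are shown for the subunits at the ends of the range of responses, Cct6a and Cct3, whose transcripts fell furthest, and Cct7, whose transcript fell least. Each run is the 250 bases before the RefSeq start (build GRCm38.p6, plus strand, 5′ to 3′), with CCAAT boxes in capitals, which read ATTGG where the box is on the other strand. Cct6a is chr5:129787106-129787355, Cct3 is chr3:88296885-88297134 and Cct7 is chr6:85451255-85451504. The Cct6a run overlaps an exon of a non-coding M21 transcript that starts upstream.
Cct6a: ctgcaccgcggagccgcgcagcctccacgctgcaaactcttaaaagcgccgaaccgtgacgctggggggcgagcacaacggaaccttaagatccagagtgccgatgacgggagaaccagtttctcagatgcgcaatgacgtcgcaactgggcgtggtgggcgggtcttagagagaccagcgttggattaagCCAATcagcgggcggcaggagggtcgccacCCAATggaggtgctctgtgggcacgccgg
Cct3: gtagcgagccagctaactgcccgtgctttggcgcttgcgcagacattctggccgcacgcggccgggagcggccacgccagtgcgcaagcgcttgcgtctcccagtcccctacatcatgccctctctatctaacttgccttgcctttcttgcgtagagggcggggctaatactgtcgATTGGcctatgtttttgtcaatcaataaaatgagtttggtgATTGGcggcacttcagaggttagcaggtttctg
Cct7: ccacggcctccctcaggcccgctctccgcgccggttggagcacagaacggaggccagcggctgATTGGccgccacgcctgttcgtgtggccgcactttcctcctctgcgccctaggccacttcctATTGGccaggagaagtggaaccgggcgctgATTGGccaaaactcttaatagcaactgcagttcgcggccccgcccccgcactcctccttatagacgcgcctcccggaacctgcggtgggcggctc

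Motifs were searched on both strands in the RefSeq windows of 250 bases before to 50 after each start, which matched 7 of the 8 members, in 9 windows. Cct4 is named only. The E-box CACGTG, the DNA letters that MYC with its partner MAX is best known to bind, was in the window of 0 members, and in 7.15% of all 32851 windows. The variant E-boxes CACGCG and CATGTG were in the windows of Cct3 (CACGCG) and of Cct2 and Cct5 (CATGTG), and in 9.27% and 14.2% of all windows. CCAAT, the letters read by the factor NF-Y, was in the windows of 4 members, Cct6a with 2 matches, Cct3 with 2, Cct7 with 3 and Tcp1 with 1, and in 37.4% of all windows. Heat shock elements, the repeats read by HSF1 and searched as TTCNNGAA and GAANNTTC, were in the windows of 3 members, Cct5, Cct6a and Cct2, with shares of 8.52% and 7.86% over all windows. Counts of members pool all windows of a gene, and here both elements. Each share is of 1 motif in single windows, so the 2 are not alike. Matches of CCAAT were not found in the windows of Cct2, Cct5 and Cct8, and a relation of any motif to the falls was not tested.

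The MYC feature followed the labels. Human MYC was at 2079, 2017 and 1975 CPM (read counts relative to library totals, the totals scaled by TMM) in the 0 h libraries and averaged 24.8 ± 1.98 CPM at 2 h, 9.42 ± 1.46 after 4 h, 5.58 ± 0.553 at 8 h and 3.29 ± 0.314 after 24 h (SD, n = 3 each). Library totals were 25852711 to 27102318 counts, and the lowest count of a member in any library was 3351. The 24 h replicate 3 stood apart from replicates 1 and 2 of its time point: a chi-square statistic over genes was 84.1 and 92.7 times its degrees of freedom for its pairs, against 2.86 to 17.2 for all other replicate pairs. The 9 markers of T cells together made up 5331 to 5408 CPM in the 0 h libraries. Their sum was lower at 2 h, between 4475 and 4542 CPM, and highest after 24 h, between 9031 and 9545 CPM. All 9 reached 1 CPM in some library of every time point up to 8 h, but only 8 did so after 24 h. Markers of B cells, erythroid cells and fibroblasts summed to at most 4.08 CPM in any library, with Pax5, Ms4a1 and Col3a1 at 0, and myeloid markers to 24.0 to 29.5 CPM at 24 h and 9.42 to 11.6 CPM at 0 h, with Lyz2 at 0. Other markers of these lists were detected: 2 of 5 myeloid and 1 of 4 fibroblast markers reached 1 CPM in some library of every time point. The fibroblast sum was 1.31 to 1.66 CPM at 0 h and 2.42 to 4.08 CPM at 24 h. The part of these shifts in the results was not tested.

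The CCT transcripts declined together as MYC was turned off. Their summed level was 6333, 6654 and 6769 CPM in the 0 h libraries, 5634, 5867 and 5791 CPM at 2 h, 4836, 4849 and 5109 CPM after 4 h, 3449, 3576 and 3878 CPM at 8 h, and 2633, 2684 and 1867 CPM after 24 h. No 2 neighbouring time points overlapped in this sum. Relative to 0 h, the sum was 87.5% ± 1.81 at 2 h, 74.9% ± 2.34 after 4 h, 55.2% ± 3.35 at 8 h and 36.4% ± 6.95 after 24 h (SD of the later libraries over the 0 h mean, n = 3). Without the 24 h replicate 3 the last value was 40.4%. As a share of all counts, with no scaling factor, the subunits took 0.295%, 0.301% and 0.216% at 24 h, against 0.599%, 0.617% and 0.632% at 0 h. In bulk RNA, fewer cells of a kind and less RNA per cell cannot be told apart.

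**Figure D1:**
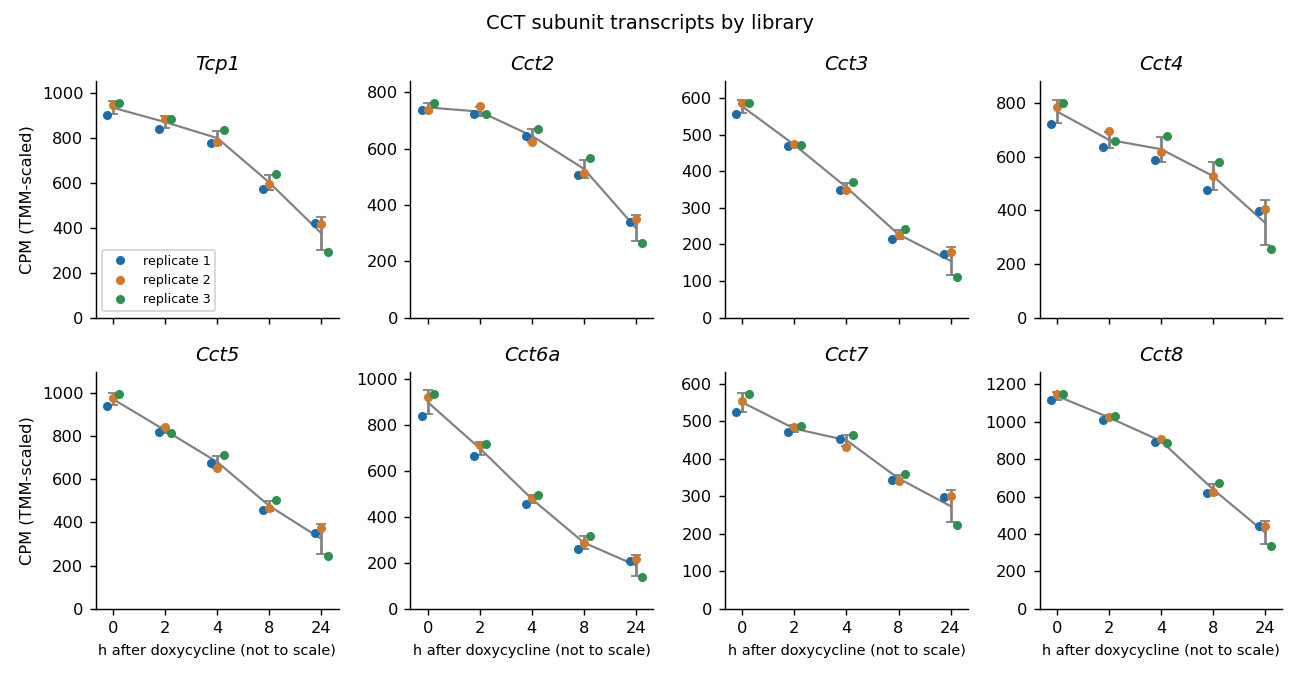
CPM on TMM-scaled totals (y axis, from 0) of each CCT subunit at 0, 2, 4, 8 and 24 h after doxycycline (x axis, not to scale). Points are libraries, lines join the means and bars are the SD (n = 3). Every subunit was lowest at 24 h, and the 24 h replicate 3 lay below the other 24 h libraries in all 8 panels.

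Called by edgeR's quasi-likelihood test at a Benjamini-Hochberg adjusted p under 0.01 over 14485 genes, 0 of the 8 subunits were lower at 2 h than at 0 h, 4 after 4 h, 8 at 8 h and 8 after 24 h. Over all genes tested, the shares called lower were 8.59% at 2 h, 19.9% after 4 h, 25.1% at 8 h and 28.1% after 24 h. None was called higher at any of these times, nor at an unadjusted p under 0.05 or by DESeq2, where 6.6%, 18.1%, 25.3% and 30.7% of all genes were called higher at 2, 4, 8 and 24 h. All 8 changed over the 5 time points, as did 74.2% of genes. At 2 h, 3 subunits (Cct3, Cct6a and Cct7) had an unadjusted p under 0.05 and DESeq2 called 0. The early counts depended on which libraries were fitted: without the 24 h replicate 3, 4 subunits were called at 2 h (Cct3, Cct5, Cct6a and Cct7) and 8 at 4 h, and a fit of only the compared time points called 6 and 8.

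The libraries themselves separated early. All 3 libraries at 2 h lay below all 3 at 0 h for 7 of the 8 subunits, all but Cct2, against 26.8% of all genes tested. At 4, 8 and 24 h this held for 8 of 8, against 30.2%, 34.1% and 33.1% of genes. The median log2 fold change of the 8 was -0.20 at 2 h, -0.32 after 4 h, -0.75 at 8 h and -1.40 after 24 h, against medians over all genes of 0.01, 0.08, 0.09 and 0.07.

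Cct6a, the zeta subunit, fell furthest. It was at 841, 921 and 938 CPM in the 0 h libraries, 667, 713 and 716 at 2 h, 458, 482 and 493 after 4 h, 261, 284 and 318 at 8 h, and 209.7, 218 and 138 after 24 h. Each time point lay wholly below the one before it. Its log2 fold change against 0 h was -0.37 ± 0.13 at 2 h (SE, adjusted p = 0.0488), -0.91 ± 0.13 after 4 h (adjusted p = 2.52e-05), -1.65 ± 0.13 at 8 h (adjusted p = 2.8e-08) and -2.25 ± 0.13 after 24 h (adjusted p = 6.19e-10). At 24 h, 20.96% of the 0 h level remained.

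Cct3, the gamma subunit, had the second largest fall. The 0 h libraries held 555, 587 and 587 CPM, the 2 h libraries 469, 473 and 472, the 4 h libraries 348, 348 and 370.1, the 8 h libraries 215, 225 and 241, and the 24 h libraries 174, 179 and 112. Again no time point overlapped the one before. The log2 fold change was -0.29 ± 0.12 at 2 h (adjusted p = 0.104), -0.70 ± 0.12 after 4 h (adjusted p = 0.000224), -1.34 ± 0.13 at 8 h (adjusted p = 1.72e-07) and -1.89 ± 0.13 after 24 h (adjusted p = 2.65e-09), with 26.9% of the 0 h level left after 24 h.

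Cct5, the epsilon subunit, in which a mutation causes a sensory neuropathy in humans, held 940.4, 975 and 997 CPM at 0 h, 820.3, 843 and 817 at 2 h, 675, 653 and 711 after 4 h, 456, 468 and 504 at 8 h, and 349.8, 374 and 246 after 24 h. Its fold changes were close to the mean of the complex, at -0.51 ± 0.11 after 4 h (adjusted p = 0.00121), -1.03 ± 0.11 at 8 h and -1.59 ± 0.11 after 24 h (adjusted p = 5.78e-09).

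Cct8, the theta subunit, an increase of which raises CCT assembly in human pluripotent cells, was the most abundant by counts at 0 h, with 1115, 1149.6 and 1151 CPM. It stood at 1009, 1027 and 1032 CPM at 2 h, 891, 909.7 and 889 after 4 h, 620.3, 623 and 672 at 8 h, and 444, 441 and 336 after 24 h. The log2 fold change was -0.15 ± 0.09 at 2 h (adjusted p = 0.224), -0.34 ± 0.09 after 4 h (adjusted p = 0.00366), -0.83 ± 0.09 at 8 h and -1.48 ± 0.09 after 24 h (adjusted p = 6.2e-10). The call at 4 h was lost when 0 h replicate 2, 0 h replicate 3 or 4 h replicate 3 was left out, with adjusted p of 0.0147, 0.0144 and 0.01004, and with upper-quartile factors.

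Tcp1, the alpha subunit and the first to be described, kept more of its transcript in the first hours. It was at 901, 945 and 958 CPM at 0 h, 841, 885 and 886 at 2 h, 778, 784 and 837 after 4 h, 572, 595 and 638 at 8 h, and 419, 417 and 290.2 after 24 h. Its log2 fold change did not pass the test at 2 h (-0.10 ± 0.11) or 4 h (-0.23 ± 0.11, adjusted p = 0.0915), and was -0.64 ± 0.11 at 8 h (adjusted p = 0.000101) and -1.32 ± 0.11 after 24 h (adjusted p = 3.12e-08).

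Cct2, the beta subunit, had the smallest changes of the 8 up to 8 h. Its libraries held 736, 739 and 764 CPM at 0 h and 722, 750.0 and 722 at 2 h, the only member whose libraries overlapped between these time points. They held 644, 623 and 669 CPM after 4 h, 506, 513 and 566 at 8 h, and 341, 349.7 and 264 after 24 h. The difference at 2 h was -0.03 on the log2 scale, with a 95% interval of -0.22 to 0.16, and turned to 0.02 on library totals. It fell at 8 h by 0.50 ± 0.09 (adjusted p = 0.000156) and at 24 h by 1.23 ± 0.09 (adjusted p = 6.75e-09).

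Cct4, the delta subunit, in which a mutation causes a sensory neuropathy in rats, had the largest SE of the 8 at each time. The values were 720.4, 784 and 802 CPM at 0 h, 635, 694 and 659 at 2 h, 588, 617 and 679 after 4 h, 475, 526 and 581 at 8 h, and 398, 406 and 256 after 24 h. Libraries of 2 h and 4 h overlapped. The log2 fold change was -0.29 ± 0.13 after 4 h (adjusted p = 0.0808), -0.54 ± 0.13 at 8 h (adjusted p = 0.00242) and -1.12 ± 0.14 after 24 h (adjusted p = 2.3e-06). At 8 h the call was lost without 0 h replicate 3 or 8 h replicate 1, at adjusted p of 0.0107 and 0.0109, and with upper-quartile factors.

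Cct7, the eta subunit, had the lowest counts at 0 h and the smallest fall at 24 h. It was at 523, 553 and 573 CPM at 0 h, 469.5, 484 and 486 at 2 h, 453, 432 and 462 after 4 h, 343, 340.4 and 358 at 8 h, and 297, 299.5 and 224 after 24 h. The log2 fold change was -0.29 ± 0.09 after 4 h (adjusted p = 0.0129), -0.66 ± 0.09 at 8 h (adjusted p = 1.1e-05) and -1.01 ± 0.09 after 24 h (adjusted p = 8.1e-08), and 49.7% of the 0 h level remained after 24 h.

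**Figure D2:**
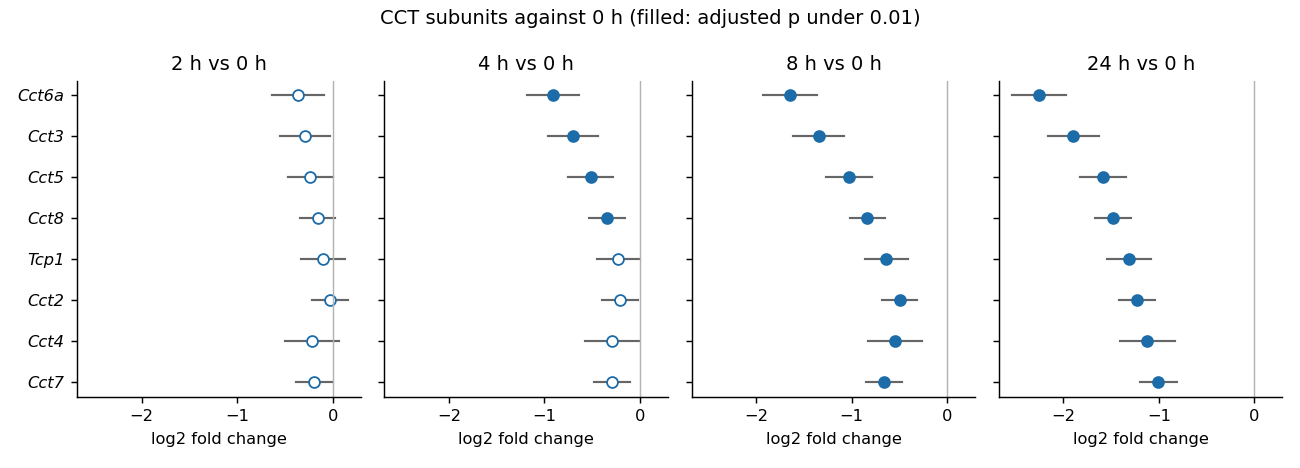
Log2 fold change of each subunit against 0 h (x axis) in edgeR's fit of 15 libraries, with 95% intervals as bars and filled points at an adjusted p under 0.01. The points run from -2.25 for Cct6a to -1.01 for Cct7 at 24 h, and all 8 are filled at 8 and 24 h.

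The decline was followed from step to step, in comparisons that share libraries with those above. From 2 to 4 h, 1 of 8 subunits was called lower (Cct6a, log2 fold change -0.55 ± 0.13, adjusted p = 0.00402), against 13% of genes. Between 4 and 8 h, 5 of 8 were called lower (Cct6a, Cct3, Cct5, Cct8 and Cct7, log2 fold changes of -0.73 to -0.37), against 6.97% of genes. Same-numbered libraries of 4 and 8 h deviated together, and with the replicate number as a block 4 were called, as Cct7 was lost (adjusted p = 0.0165). Between 8 and 24 h, 8 of 8 were called lower, with -0.73 for Cct2 at one end and -0.34 for Cct7 at the other, against 17.3% of genes.

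These step counts moved with single libraries. Leaving out the 24 h replicate 3 gave 5 after 4 h against 2 h and 8 at 8 h against 4 h, and leaving out 2 h replicate 2 or 3, or 4 h replicate 1 or 2, gave 0 after 4 h against 2 h, with adjusted p of 0.0114 to 0.0168 for Cct6a. At 8 h against 4 h the count was 3 without any 1 of the 4 h libraries or 8 h replicate 3, and 2 without 8 h replicate 1 or 2. For 24 h against 8 h it was 4 without 8 h replicate 3, and 2 (Cct2 and Cct8) in a fit of only those time points.

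The share of the 24 h change reached at each earlier time differed between subunits. By 4 h Cct6a had covered 40.5% of its log2 change at 24 h and Cct3 36.8%, whereas Tcp1 and Cct2 had each covered 17.1%. By 8 h these shares were 73.0% for Cct6a, 70.9% for Cct3, 48.3% for Tcp1 and 40.5% for Cct2. Among the others, Cct7 stood at 65.8%, Cct5 at 64.8%, Cct8 at 56.2% and Cct4 at 48.5%. The order was another at 2 h, where Cct7 (19.4%) and Cct4 (19.1%) led Cct6a (16.2%) and Cct3 (15.3%). The shares have no SE, and the 4 h changes of Tcp1 and Cct2 did not pass the test. They also rest on the 24 h replicate 3: without it the 24 h change was -0.88 for Cct7 in place of -1.01, and -0.93 for Cct4 in place of -1.12.

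Whether the subunits moved alike was tested by scaling each library so that the geometric mean of the 8 counts was equal in all, so that a fold change is relative to the complex. On this scale 0 subunits were called as departing from the mean at 2 h (1 was lower and 2 higher at an unadjusted p under 0.05), 4 after 4 h, 6 at 8 h and 6 after 24 h. Of all genes, 11.4%, 47.2%, 71.4% and 88% were called on this scale in either direction. The scale adds the fall of the complex to every other gene, so these shares are no baseline for the subunits. Cct6a and Cct3 were lower than the complex and Tcp1 and Cct2 higher at 4, 8 and 24 h, and Cct4 and Cct7 were higher at 8 and 24 h. Cct5 and Cct8 were not called at any time, with 95% intervals at 24 h of -0.19 to -0.01 and -0.10 to 0.12 on the log2 scale. Scaled by the summed counts of the 8 in place of the geometric mean, Cct5 was called below the complex at 8 h (-0.17, adjusted p = 0.00235) and 24 h (-0.13, adjusted p = 0.00992). Because the 8 share the mean that they are set against, a subunit below it forces others above it.

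At 24 h the departures were largest for Cct6a and Cct7. Relative to the complex, Cct6a was at -0.17 ± 0.05 at 2 h (SE, adjusted p = 0.0333), -0.48 ± 0.05 after 4 h, -0.75 ± 0.05 at 8 h and -0.77 ± 0.05 after 24 h (adjusted p = 5.98e-09). Cct3 was at -0.26 ± 0.05 after 4 h, -0.44 ± 0.05 at 8 h and -0.42 ± 0.05 after 24 h (adjusted p = 2.17e-06). On the other side, Cct7 was at 0.14 ± 0.05 after 4 h (adjusted p = 0.0247), 0.24 ± 0.05 at 8 h and 0.49 ± 0.05 after 24 h (adjusted p = 5.77e-07). At 24 h Cct4 stood at 0.36 ± 0.05, Cct2 at 0.27 ± 0.05 and Tcp1 at 0.17 ± 0.04. A fit of 0 h and 24 h alone called 2 subunits above the complex in place of 4, as Tcp1 (adjusted p = 0.0342) and Cct2 (adjusted p = 0.0131) were lost. Without the 24 h replicate 3 the count of subunits below the complex was 1 at 2 h (Cct6a) and 3 at 8 h (with Cct5).

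**Figure D3:**
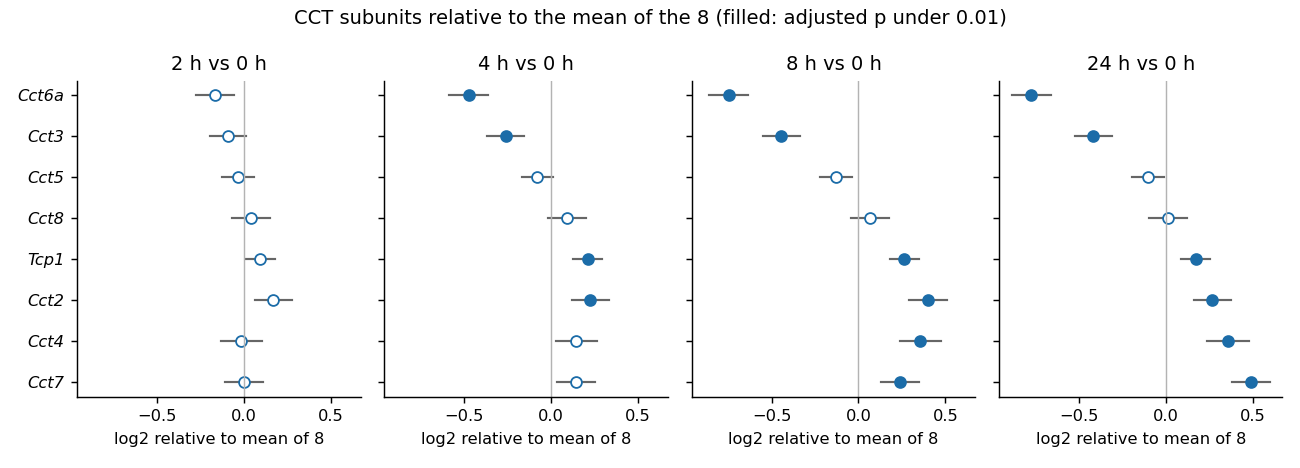
Log2 fold change of each subunit against 0 h relative to the geometric mean of the 8 (x axis), with 95% intervals as bars and filled points at an adjusted p under 0.01. Cct6a and Cct3 lie left of 0 and Cct7, Cct4, Cct2 and Tcp1 right of it at 24 h, where Cct6a is at -0.77 and Cct7 at 0.49.

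Ratios of counts within a library restate these departures from the same counts, with no scaling factor. They are given as a description, for pairs picked from the ends and the middle of the order. Counts of Cct6a over Cct7 were 1.61, 1.67 and 1.64 at 0 h, 1.42, 1.47 and 1.47 at 2 h, 1.01, 1.12 and 1.07 after 4 h, 0.763, 0.835 and 0.886 at 8 h, and 0.706, 0.729 and 0.617 after 24 h. Cct6a thus held more counts than Cct7 in every library up to 4 h and fewer in every library at 8 and 24 h. Counts of Cct3 over Cct4 were 0.437, 0.441 and 0.436 at 24 h, against 0.771, 0.749 and 0.732 at 0 h. Counts of Cct5 over Cct8 changed least of these pairs, at 0.788, 0.849 and 0.732 at 24 h, against 0.844, 0.848 and 0.866 at 0 h. The 24 h replicate 3 was low in the CPM of all 8 genes, but its ratio of Cct3 to Cct4 was 0.436, beside 0.437 and 0.441 in replicates 1 and 2.

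**Figure D4:**
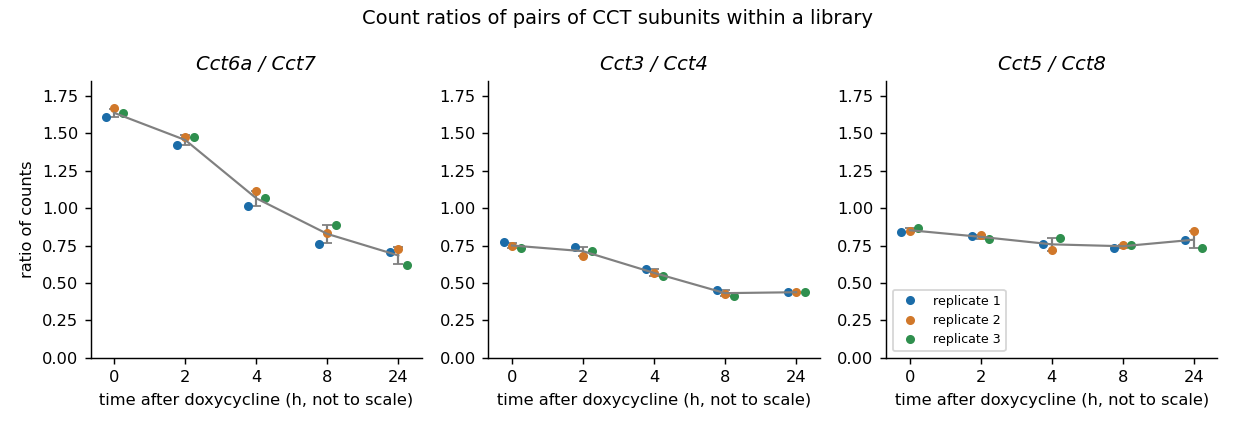
Ratio of counts (y axis, from 0) within each library for 3 pairs of subunits by time after doxycycline (x axis, not to scale). Points are libraries, lines join the means and bars are the SD (n = 3). Cct6a over Cct7 passes below 1 between 4 and 8 h, and Cct5 over Cct8 stays between 0.717 and 0.866 in all libraries.

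The fold changes of the 8 spread less than those of all genes tested, which include genes of low counts and genes that rose. The subunits were not compared with genes of like level or direction. The SD of the 8 log2 fold changes was 0.11 at 2 h, 0.25 after 4 h, 0.41 at 8 h and 0.42 after 24 h, and that of all genes was 0.44, 0.74, 0.95 and 1.158. From 8 to 24 h the 8 had an SD of 0.12 and all genes 0.74. Over the 4 contrasts with 0 h, the root mean square distance of Cct8 from the mean of the other 7 was 0.07 on the log2 scale, rank 4 of 14478 genes, and that of Cct5 was 0.11, rank 18. Tcp1 ranked 187, Cct4 388, Cct7 413, Cct2 448, Cct3 851 and Cct6a 3717, at a distance of 0.68. Between pairs of subunits the distance ran from 0.08 for Cct4 with Cct7 to 0.86 for Cct2 with Cct6a. These are descriptions, since the 4 contrasts share the 0 h libraries.

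Outside the complex, the genes whose pattern lay nearest to the mean of the 8 over the 4 contrasts, of 8259 protein-coding genes with a mean of at least 10 CPM, were Xrcc5 at a distance of 0.03 on the log2 scale, Coq4 at 0.05, Eif2s3x at 0.05, Dlat at 0.07, Txn2 at 0.07, Tomm20 at 0.08, Acad9 at 0.08 and Cinp at 0.08. Xrcc5, which encodes the Ku80 subunit of the DNA end-binding heterodimer, had log2 fold changes of -0.18, -0.45, -0.90 and -1.43 at 2, 4, 8 and 24 h, where the mean of the CCT subunits was -0.20, -0.44, -0.90 and -1.49. Eif2s3x encodes the gamma subunit of the initiation factor eIF2. Coq4, Dlat, Txn2, Tomm20 and Acad9 encode mitochondrial proteins.

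Within a time point, the subunits often deviated to the same side. In the 24 h replicate 3 all 8 lay below the mean of their time point on the log2 scale, by a median of -0.36, while 48.2% of all genes tested did so. All 8 were above it in 24 h replicates 1 and 2, in 0 h replicate 3, in 2 h replicate 2 and in 8 h replicate 3, and all 8 were below it in 0 h replicate 1, 2 h replicate 1 and 8 h replicate 1, with medians no farther from 0 than 0.09 outside 24 h. In the other 6 libraries the members were split, 7 above and 1 below in 0 h replicate 2 and 4 h replicate 3, 5 and 3 in 2 h replicate 3, 1 and 7 in 4 h replicate 1 and 8 h replicate 2, and 2 and 6 in 4 h replicate 2. Over the 15 libraries, the share of all genes below the mean ran from 47.0% (8 h replicate 1) to 53.2% (8 h replicate 2). The 3 deviations of a gene at a time point sum to 0, so the libraries of a time point are not independent here. The 24 h mean includes replicate 3, which lowers it under the other 24 h libraries. Transcripts of ribosomal proteins took 3.51% of counts in the 24 h replicate 3, against 5.48% and 5.82% in replicates 1 and 2, and mitochondrially encoded transcripts took 2.47%, against 2.06% and 2.16%. What these shares have to do with the level of the subunits was not tested.

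Between genes, levels can be set side by side only per length. The authors' TPM divides counts by gene length and then by the library's sum. In TPM at 0 h, the order was Cct8 (966 ± 6.72), Cct5 (920.2 ± 19.3), Cct2 (765 ± 17.1), Cct6a (652 ± 29.0), Tcp1 (487 ± 9.99), Cct4 (479.5 ± 20.8), Cct3 (237 ± 4.15) and Cct7 (213 ± 7.76; SD, n = 3 each). Only Tcp1 and Cct4 overlapped among neighbours in that order. At 24 h the order was Cct8 (438 ± 32.5), Cct2 (413 ± 29.4), Cct5 (387 ± 53.3), Cct4 (278 ± 46.5), Tcp1 (247 ± 30.5), Cct6a (172 ± 28.0), Cct7 (134 ± 11.0) and Cct3 (80.4 ± 13.7), and libraries overlapped between Cct8 and Cct2, Cct2 and Cct5, Cct4 and Tcp1, and Cct6a and Cct7. Cct8 thus led at both times, and Cct7 was last at 0 h and Cct3 at 24 h.

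That order leans on gene length, which the files set to all exons of a gene merged: 6778 bases for Cct7, 6370 for Cct3 and 5030 for Tcp1. In GENCODE M21 the longest principal coding transcripts of these genes have 2441, 1977 and 2446 bases. For Cct6a, which M21 does not type as coding, the longest transcript tagged basic was taken, with 2454 bases. On transcript lengths, an alternative chosen after seeing the data, Cct7 made up 7.62% of the sum of the 8 at 0 h in place of 4.50%, Cct5 was first with 17.7% and Cct8 second with 16.1%. The highest and the lowest subunit then differed 2.33-fold at 0 h, against 4.55-fold on the deposited lengths, and at 24 h Cct6a (7.14% ± 0.355) and Cct3 (7.27% ± 0.423) were last, a gap smaller than their SD. On the deposited lengths Cct6a made up 7.98% ± 0.428 of the sum at 24 h and 13.8% ± 0.360 at 0 h, Cct3 3.72% ± 0.232 and 5.03% ± 0.0475, and Cct7 6.24% ± 0.212 and 4.50% ± 0.0661.

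The other chaperonins in these cells sit in the mitochondria or are relatives of CCT. Hspd1 and Hspe1, the HSP60 ring and HSP10 lid of the mitochondrial chaperonin, had larger changes after 24 h than any CCT subunit, with log2 fold changes of -3.94 (adjusted p = 6.53e-14) and -2.46 (adjusted p = 3.07e-09), and Hspd1 averaged 108 CPM after 24 h and 1656 CPM at 0 h. Cct6b, a relative of Cct6a known from the testis, was higher after 24 h by 2.04 on the log2 scale (adjusted p = 0.000601) at a level of 0.718 CPM after 24 h and 0.171 CPM at 0 h. Of the 6 tested in this list of 7, 2 were lower and 1 higher at 24 h, with a median of -0.23. Over all genes, 28.1% were called lower and 30.7% higher at 24 h. Mkks, Bbs10 and Bbs12, chaperonin-like proteins that help to build the BBSome of cilia, did not pass the test at 24 h. Bbs12 was lower at 4 h (log2 fold change -0.50, adjusted p = 0.00775) and 8 h (-0.58, adjusted p = 0.0023).

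Prefoldin, which delivers actin and tubulin chains to CCT, moved unevenly. At 24 h, 3 of its 6 genes were lower, Pfdn2 (log2 fold change -0.94, adjusted p = 1.44e-07), Pfdn6 (-0.80, adjusted p = 1.84e-07) and Vbp1 (-0.54, adjusted p = 0.00222), and Pfdn5, also known as a binder of MYC, was higher (0.75, adjusted p = 0.0012). The median of the 6 was -0.48 at 24 h and -0.02 at 8 h. At 24 h, 28.1% of all genes were called lower and 30.7% higher. Pfdn2 was also lower at 2 h (-0.38, adjusted p = 0.00525), where Cct6a had -0.37 (adjusted p = 0.0488).

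The cofactors that adjust CCT moved both ways. Of 4 tested cofactor genes, Pdcl, a phosducin-like partner of CCT in the folding of G protein beta subunits, was higher at every time, by 0.77 at 2 h (adjusted p = 0.000238) and 0.47 after 24 h (adjusted p = 0.00254) on the log2 scale. Pdcl3 was higher at 4 h (0.55, adjusted p = 5.59e-05) and 8 h (0.54, adjusted p = 4.81e-05), and Txndc9 was not called against 0 h. Pdcd5, a protein that binds CCT, was lower at 8 h (-0.46, adjusted p = 0.00105) and 24 h (-0.55, adjusted p = 0.000186). The median of the 4 was -0.0016 at 24 h, where 1 was lower and 1 higher, beside 28.1% and 30.7% of all genes.

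The R2TP and URI complexes hold prefoldin-like subunits and assemble larger machines such as RNA polymerases. Of their 8 genes, 6 were lower at 24 h, against 28.1% of all genes, with a median of -0.69. Ruvbl1 (-1.89, adjusted p = 1.29e-11) and Ruvbl2 (-1.86, adjusted p = 7.12e-12), its ATPases, fell most, followed by Polr2e (-1.13, adjusted p = 1.19e-06) and Rpap3 (-0.72, adjusted p = 2.33e-07). In the cytosolic HSP70, HSP40 and HSP90 system, 18 of 26 tested genes were lower and 2 higher at 24 h, with a median of -0.88. At 2 h, 13 of them were lower. The shares of all genes were 28.1% lower and 30.7% higher at 24 h, and 8.59% lower at 2 h. At 24 h Fkbp4 (-2.37), Hsph1 (-2.30), Bag2 (-2.05) and Hsp90ab1 (-1.80) fell most in this system, with adjusted p of at most 2.55e-10. The co-chaperones Dnajc7 (1.01, adjusted p = 5.8e-10) and Dnajb1 (0.67, adjusted p = 2.05e-05) were higher.

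At 24 h the genes of proteins that CCT folds were called in both directions, at shares near those over all genes (28.1% lower and 30.7% higher). Of 18 tested actin and tubulin genes, 4 were lower and 6 higher at 24 h, with a median of 0.18 against 0.07 over all genes. Actb was higher by 0.37 (adjusted p = 0.000265) and Actg1 lower by 0.50 (adjusted p = 3e-05) on the log2 scale, and Tuba1a was higher by 0.89 (adjusted p = 2.54e-05) where Tuba1b was lower by 0.52 (adjusted p = 9.58e-06). Reads of near-identical tubulin and actin genes can be split between copies, so single members are uncertain. Of 21 genes of WD40-repeat and other client proteins, 6 were lower and 7 higher, with a median of -0.09. Rack1, a WD40 protein of the ribosome, was lower by 1.10 (adjusted p = 1.85e-05) and Trp53 by 0.85 (adjusted p = 4.7e-06), and Vhl was higher by 0.71 (adjusted p = 0.000112). Earlier, more client genes were called higher than lower. Of the actin and tubulin genes, 10 were higher and 1 lower at 4 h, and 7 and 2 at 8 h. Of the WD40 and other clients, 7 were higher and 2 lower at 4 h, and 7 and 3 at 8 h. Over all genes, 18.1% were higher and 19.9% lower at 4 h, and 25.3% and 25.1% at 8 h.

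The cofactors that pair alpha- and beta-tubulin after CCT were mixed at 24 h, with a median of -0.20. Of the 7, 3 were lower (Arl2, Tbcd and Tbce) and 2 higher (Tbcb and Tbcel), beside 28.1% and 30.7% of all genes. As another large cytosolic ring assembled from fixed subunits, the 20S proteasome core was also set beside CCT. Of its 14 genes, 3 were lower at 8 h and 7 after 24 h, beside shares of 25.1% and 28.1% over all genes, with a median after 24 h of -0.41 and Psma5 (-1.04, adjusted p = 2.08e-05) lowest. The difference between these lists was not tested.

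**Figure D5:**
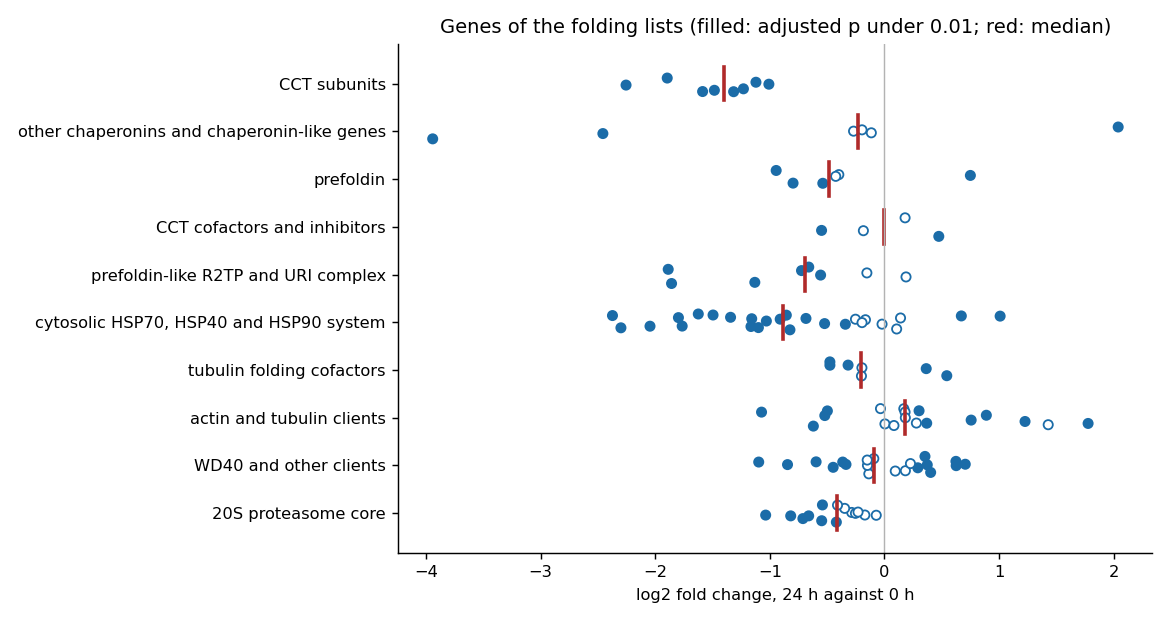
Log2 fold change at 24 h against 0 h (x axis) of every tested gene of the 10 lists (rows), with filled points at an adjusted p under 0.01 and the median of each list in red. The CCT subunits lie between -2.25 and -1.01 with none to the right of 0, and the client lists spread to both sides of it.

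The overlapping neighbours on the other strand varied. Psph, which overlaps Cct6a, was lower at 24 h (log2 fold change -0.91, adjusted p = 1.74e-05), as were Acat3, which overlaps Tcp1 (-1.39, adjusted p = 1.93e-08), and Usp16, which overlaps Cct8 (-0.39, adjusted p = 0.000178). Mrpl18 (-0.17) and Pradc1 (-0.21) did not pass the test. Cct6a averaged 189 CPM after 24 h and 900.1 CPM at 0 h, and Psph 42.8 CPM after 24 h and 80.5 CPM at 0 h. The part of shared reads in these values was not tested.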

How the data were processed

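PolyA RNA-seq was grouped by the time in the labels. The authors deposited raw counts per gene, with TPM computed from merged exon lengths, which equalled those of GENCODE M21 for all 8 members. Trimming with cutadapt 1.16, mapping with STAR 2.5.4b to mm10 and featureCounts are listed in the submitters' notes, without strand settings. Counts were filtered with filterByExpr, scaled by TMM and tested with edgeR 4.0.16 (glmQLFit, 15 libraries, 1 mean per time point) in R 4.3.3. The script was tested on simulated data. DESeq2 1.42.0, other scalings, filters, thresholds and fits, and leaving out each library were alternatives. Deviations of same-numbered libraries correlated at 4 with 8 h in all 3 numbers (r = 0.54, 0.20 and 0.42) and at no other pair of times in all 3. Replicate pairs all differed by more than sampling noise. The members and gene lists were chosen with earlier results of these data known. Named genes were the 8 members, the 8 nearest patterns, human MYC, up to 4 called genes with the largest change per list and comparison (any member where at most 5 were called) and genes overlapping members. Actb, Trp53, Mkks and others outside that rule were named after their values were seen.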

Additional observations from a re-analysis of the deposited data

How the results depend on the processing

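Every one of the 8 subunits was called lower at 24 h under all alternatives, and at 8 h 7 or 8 were. Of 1344 fold changes of members under alternatives, 1250 kept their direction and their side of the threshold, 42 passed it newly, 50 no longer passed it and 2 reversed: Cct2 at 2 h, at 0.0168 on library totals and 0.0075 with upper-quartile factors. Counts called lower at 2 h were 1 with no low-count filter, 1 at an adjusted p under 0.05, and 6 in a fit of only the compared times, which gave 8 at 4 h, 4 at 4 h against 2 h and 2 at 24 h against 8 h. For 4 h against 2 h, 2 were called with no filter, by DESeq2 and at an adjusted p under 0.05. Leaving out 1 library gave 0 to 4 at 2 h, 3 to 8 at 4 h, 7 to 8 at 8 h, 0 to 5 at 4 h against 2 h, 2 to 8 at 8 h against 4 h and 4 to 8 at 24 h against 8 h, with the upper end without the 24 h replicate 3 where it exceeded the main count.

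Relative to the complex, a fit of only the compared times called 1 lower and 1 higher at 2 h and 2 higher at 24 h, an adjusted p under 0.05 called 1 lower and 1 higher at 2 h and 4 higher at 4 h, and leaving out 1 library gave 0 to 1 lower and 0 to 1 higher at 2 h. Cct7 at 2 h turned to -0.0035 and Cct8 at 24 h to -0.0159 when scaled by summed counts, which also called Cct5 below the complex at 8 h (-0.17) and 24 h (-0.13), and leaving out 1 library gave -0.0043 to 0.0123 for Cct7 and -0.0317 (without the 24 h replicate 3) to 0.0459 for Cct8. The summed level relative to 0 h was 89.7% (2 h) and 45.5% (24 h) in the authors' TPM and 90.4%, 77.3%, 59.5% and 43.9% at 2, 4, 8 and 24 h on library totals, and 34.2% to 40.4% at 24 h with 1 library left out. Relative to TMM, library totals moved the median of all genes at 24 h by 0.27 and upper-quartile factors by 0.14, and at 8 h by 0.11 and 0.16. The cause of these shifts was not tested.

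Of 30 correlations between deviations of same-numbered libraries, 13 were over 0.1 (range -0.60 to 0.54), and all 3 were only for 4 h with 8 h. With a replicate block, 0, 4, 8 and 8 subunits were called lower at 2, 4, 8 and 24 h, 4 at 8 h against 4 h and 7 at 24 h against 8 h, where Cct7 did not pass (adjusted p = 0.0165 and 0.0101).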
